A study of Mus musculus with 4 samples.

Results

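miR-9 and miR-9* are the 2 mature strands cut from the miR-9 precursor, and they are 2 of the 611 mouse miRNAs on the array used here. They were taken by their names on the array, mmu-miR-9 and mmu-miR-9*, which pick 4 probes of 10 spots each, 2 probes for each strand. Mature miRNAs had been measured on 4 one-colour arrays, 1 for each of 4 groups of mouse neural stem and progenitor cells derived from embryonic stem cells and grown as neurospheres, which are floating clusters of dividing neural cells. The groups were secondary neurospheres (passage 1, 12 days of culture after the embryoid body stage) titled NFIA OE, for NFIA overexpression, secondary neurospheres titled control, primary neurospheres (passage 0, 6 days) titled NFIA OE, and primary neurospheres titled control. Each group had 1 array and no replicate. At each passage the NFIA-overexpressing and the control cells shared mixed spheres and were separated by fluorescence-activated sorting, so the arrays of a passage did not come from independent cultures, and passage and days of culture cannot be told apart. The vector and promoter that drive NFIA are not given in the sources used here. The source names of the samples contradict the titles on NFIA status in both passages. Groups follow the titles here, and by the source names every signed title difference would turn its sign.

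miR-9 is among the miRNAs best known from the developing vertebrate brain, where neural stem and progenitor cells make it as they turn toward neurons. Each mature strand pairs through its seed, the short run near its 5′ end, with sites in messenger RNAs and lowers their output. Reported targets of miR-9 include Nr2e1, a nuclear receptor that keeps neural stem cells dividing, Hes1, a Notch effector, and Rest, a repressor of neuronal genes. Reported targets of miR-9* include Rcor1, a corepressor that works with Rest, and Actl6a, a subunit of the progenitor form of the BAF chromatin remodeller.

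The mature sequences, from RefSeq on GRCm38.p6, are those of the strands the probes are named for, with the seed (bases 2 to 8) in capitals. The sequences of the probes are not given in the sources used here. The array's miR-9 is miR-9-5p in RefSeq and its miR-9* is miR-9-3p.
miR-9: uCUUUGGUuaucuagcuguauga
miR-9*: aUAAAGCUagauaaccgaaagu
The strands have different seeds, and of the 1679 mature names in that table none (0) beside these shares either seed. The same pair of strands lies in 3 hairpin genes, shown here because the array cannot tell them apart. Capitals mark miR-9 and, after the loop, miR-9*.
Mir9-1: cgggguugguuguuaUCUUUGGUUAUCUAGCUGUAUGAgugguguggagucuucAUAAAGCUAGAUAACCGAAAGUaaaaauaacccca
Mir9-2: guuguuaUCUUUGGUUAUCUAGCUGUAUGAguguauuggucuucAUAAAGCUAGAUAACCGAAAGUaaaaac
Mir9-3: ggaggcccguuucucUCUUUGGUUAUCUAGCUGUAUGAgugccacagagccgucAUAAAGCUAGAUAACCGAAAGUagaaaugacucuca
Mir9-1 lies at chr3:88215598-88215686, Mir9-2 at chr13:83738814-83738885 and Mir9-3 at chr7:79505264-79505353, all on the plus strand of GRCm38.p6. Mir9-1 overlaps the long noncoding RNA gene Gm3764, Mir9-2 overlaps C130071C03Rik and Mir9-3 overlaps Mir9-3hg. Whether each hairpin is exonic or intronic in these genes is not given in the gene table. The hairpins differ outside the strands, with 16, 14 and 16 bases between miR-9 and miR-9*. RNAfold paired 19 of the 23 bases of miR-9 with bases of miR-9* in each. Every level below is therefore a sum over the 3 genes.

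The arrays were of unequal brightness, which touches each comparison between them. The 75th percentile of processed intensity over commonly detected probes was 369 and 443 units on the secondary arrays titled NFIA OE and control, against 261 and 167 units on the primary arrays in the same order. Between 186 and 220 mouse miRNAs were detected per array, 153 of them on all 4, and the median negative control stood at 2.92 to 3.72 units. Signals were put relative to this percentile on the log2 scale, and the result is called the scaled level. No spot of these probes was saturated (0 on each array). Of the 160 spots of the strands, 5 were left out for an outlier flag, and all others were well above background. Precision is limited by there being 1 array a group. In the limma fits of passage and title as additive terms, the residual is the change of the title difference between passages. It is shared over miRNAs or over strand pairs. The p-values of these fits therefore do not measure the spread between independent cultures.

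Before any scaling, both miR-9 probes were brightest on the secondary array titled control and dimmest on the primary array titled control. Probe A_54_P2294 averaged 1851 ± 97.0 units on the secondary array titled NFIA OE (SD over 10 spots), 3135 ± 104 on the secondary array titled control (9 spots), 410 ± 27.2 on the primary array titled NFIA OE (10 spots) and 279 ± 15.9 on the primary array titled control (9 spots). Its spots covered 1705 to 1988, 2993 to 3328, 367 to 444 and 261 to 313 units in the same order, so no array's spots overlapped those of another. Probe A_54_P2295, the dimmer of the pair, averaged 758 ± 37.6, 1308 ± 54.6, 168 ± 11.9 and 121 ± 7.04 units on the same arrays (SD over 10, 9, 10 and 8 spots). Spots of 1 probe on 1 array are technical repeats, and their coefficient of variation was 3.32% to 7.06% for miR-9.

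miR-9* had the same order of arrays over a wider range. Probe A_54_P1051 averaged 1126 ± 36.4 units on the secondary array titled NFIA OE, 2395 ± 62.3 on the secondary array titled control, 187 ± 9.07 on the primary array titled NFIA OE and 118 ± 9.0 on the primary array titled control (SD over 10 spots each). Its spots spanned 1077 to 1173, 2311 to 2492, 173 to 205 and 100 to 130 units, again with no overlap between arrays. Probe A_54_P1053 averaged 802 ± 49.8, 1723 ± 111, 122 ± 12.4 and 73.2 ± 7.49 units in that order. Its lowest spot was at 60.2 units, on the primary array titled control, where the median negative control was 3.72 units. The spot variation of miR-9* was 2.60% to 10.2%, with the largest values on the primary arrays.

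**Figure D1:**
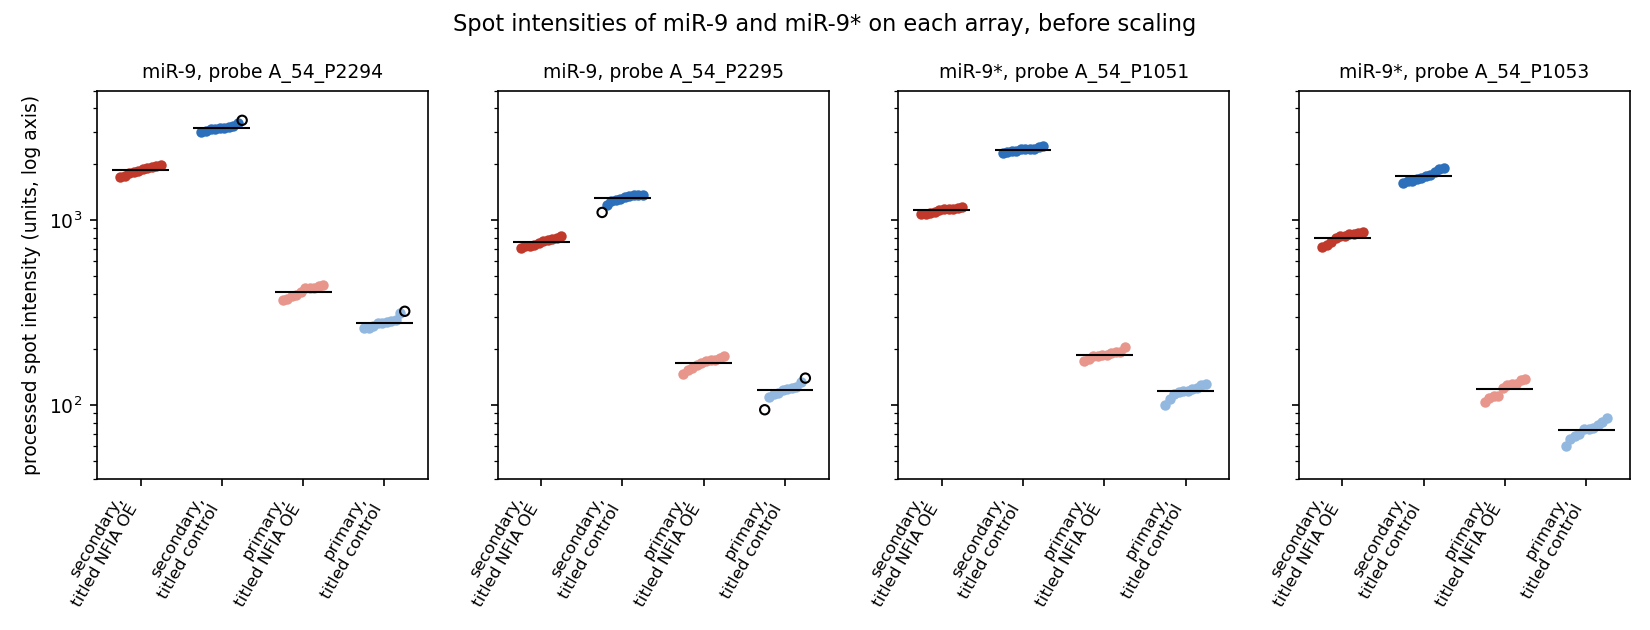
Processed intensity of every spot (log axis, intensity units, before scaling) for the 2 probes of miR-9 and the 2 probes of miR-9* on the 4 arrays; black lines are means and open circles are the 5 spots left out as outliers. In each panel the secondary arrays sit far above the primary ones, and the secondary array titled control is the brightest, with its miR-9 probe A_54_P2294 at 3135 units.

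The comparison of passages asked how the strands differed between secondary and primary neurospheres. Both strands rose, miR-9* by 6.06-fold and miR-9 by 3.65-fold. The scaled level of miR-9 was 1.68 on the secondary array titled NFIA OE and 2.19 on the secondary array titled control, against 0.0071 and 0.13 on the primary arrays titled NFIA OE and control. Both secondary values lay above both primary ones. The means were 1.94 ± 0.36 in secondary and 0.07 ± 0.09 in primary neurospheres (SD over 2 arrays each, 1 of each title). For miR-9* the scaled level was 1.37 and 2.20 on the secondary arrays titled NFIA OE and control, against -0.79 and -0.85 on the primary arrays in the same order. Its means were 1.78 ± 0.59 and -0.82 ± 0.04 in secondary and primary neurospheres (SD over 2 arrays each, 1 of each title). Under this scaling the primary arrays thus lay close together for each strand and the secondary arrays lay apart, with the array titled control above. Without scaling the primary arrays differed by 0.52 for miR-9 and 0.70 for miR-9* (NFIA OE minus control). With median centring miR-9 differed by -0.41 between the primary arrays and by -0.37 between the secondary ones. The 2 arrays of a passage differ in title and came from shared spheres, so the SDs above are not a spread between replicates. A passage difference therefore cannot be told apart from a difference between the cultures used.

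In the limma fit over all 153 miRNAs, with passage and title as additive terms, the passage difference of miR-9 was 1.87 (SE 0.29, 95% interval 1.29 to 2.45, adjusted p = 3.82e-08). That of miR-9* was 2.60 (SE 0.29, 95% interval 2.02 to 3.18, adjusted p = 1.29e-13). Both differences are log2 and higher in 2 of 2 pairs of arrays. Among the 153 miRNAs 45.8% were called by passage and 13.1% were called higher, miR-9* had the second-highest difference and miR-9 ranked 7. The median miRNA stood at -0.39, and relative to it miR-9 was at 2.26 and miR-9* at 2.99. The fit judges every miRNA against 1 pooled residual SD of 0.29, while the residual SD of miR-9* alone was 0.45 and that of miR-9 was 0.19. With the arrays set to equal medians, the adjusted p was 0.0501 for each strand and 0 of 153 miRNAs were called by limma (44 at an unadjusted p under 0.05), with differences of 2.35 for miR-9 and 3.08 for miR-9*. Without the secondary array titled control, with passage alone in the fit, the differences were 1.61 and 2.18 and were not called (limma adjusted p = 0.0844 and 0.0672).

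The pair of arrays titled control carried the larger passage difference for each strand. miR-9* differed by 2.15 in the pair titled NFIA OE, which is 4.45-fold, and by 3.04 in the pair titled control, which is 8.25-fold. miR-9 differed by 1.68 (3.20-fold) and 2.06 (4.17-fold) in the same order. At least 2-fold apart were 22.3% of 188 miRNAs in the pair titled NFIA OE and 35.6% of 160 in the pair titled control, both strands among them. miR-9* ranked 3 and miR-9 ranked 5 among the 188, and they ranked 4 and 9 among the 160. A single pair has no replicate, so these differences carry no test.

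The probes of a strand gave like passage differences. Those of miR-9 were at 1.88 and 1.86 over both pairs, and the gap between them held at 1.29, 1.26, 1.29 and 1.21 log2 on the secondary NFIA OE, secondary control, primary NFIA OE and primary control arrays. Those of miR-9* were at 2.51 for A_54_P1051 and 2.68 for A_54_P1053, and their gap was 0.49 and 0.48 on the secondary arrays and 0.61 and 0.69 on the primary ones. The dimmer miR-9* probe thus fell further behind the brighter one where the signal was low. For all 4 probes taken alone, the passage difference was called by limma.

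**Figure D2:**
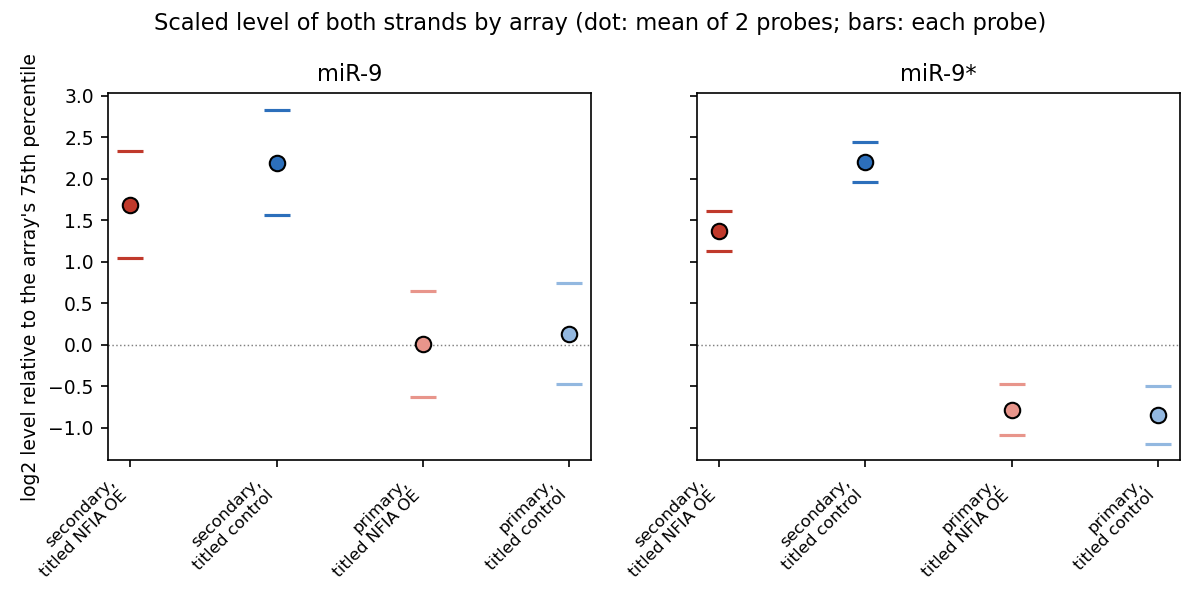
Scaled log2 level (relative to each array's 75th percentile of commonly detected probes) of miR-9 and miR-9* on the 4 arrays; dots are the mean over 2 probes and short bars the probes. Both secondary arrays lie above both primary arrays for each strand, and miR-9* spans from 2.20 on the secondary array titled control to -0.85 on the primary one.

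**Figure D3:**
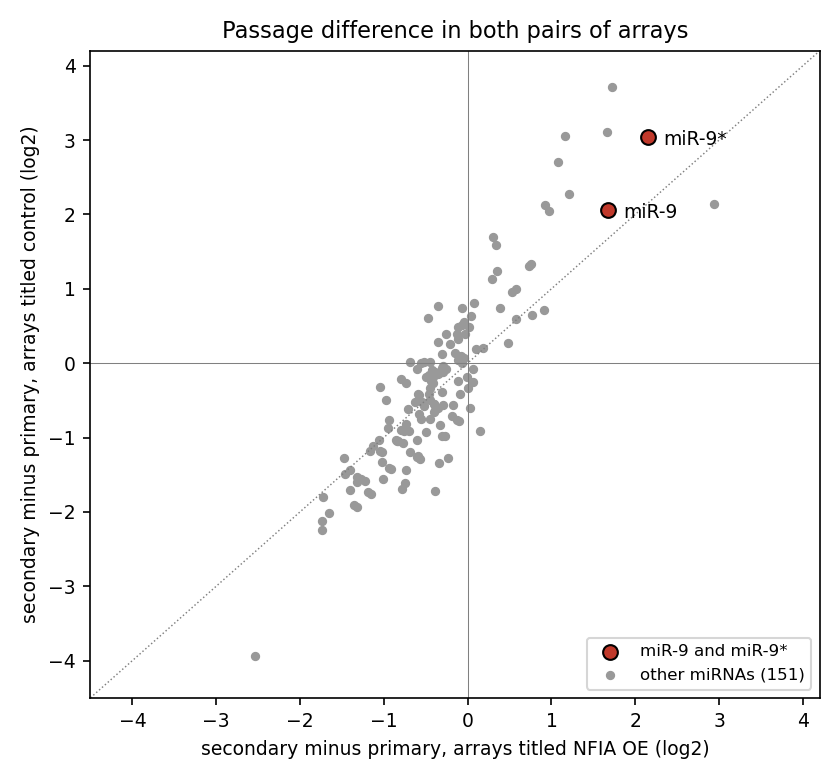
Passage difference (secondary minus primary, log2) of the 153 miRNAs detected on all arrays, in the pair titled NFIA OE (x axis) and the pair titled control (y axis), with the line of equality dotted. miR-9 at 1.68 and 2.06 and miR-9* at 2.15 and 3.04 lie among the highest points and above the line.

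Markers of pluripotent cells moved the other way with passage, and their part in the rise of the strands was not tested. Of 19 miRNAs of the miR-290 and miR-302 clusters, 7 and 1 were detected on the secondary arrays titled NFIA OE and control, against 11 and 10 on the primary arrays. Their summed level, in multiples of the array's 75th percentile, was 0.492 and 0.251 on the secondary arrays and 4.38 and 5.14 on the primary ones. Members such as miR-290-3p, miR-291b-5p and miR-294* were detected on none of the arrays (0 of 4). In bulk samples, fewer cells of a type and less of a miRNA per cell cannot be told apart. The 6 blood markers, miR-142-3p and miR-223 among them, were detected on none (0 of 6 on each array), with summed levels of 0.0172 to 0.0453.

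Marker sums of other neural cells differed less between passages than those of pluripotent cells. The 3 neuronal markers summed to 0.322 and 0.457 on the secondary arrays titled NFIA OE and control and to 0.547 and 1.05 on the primary arrays, with miR-132 not detected on the primary ones. The 7 astrocyte markers summed to 4.38 and 4.47 on the secondary arrays and to 4.40 and 3.52 on the primary arrays, with all 7 detected on each secondary array and 6 on each primary array. The 2 oligodendrocyte markers summed to 0.938 and 1.22 on the secondary arrays and to 0.966 and 1.92 on the primary arrays.

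Of the other miRNAs of neurogenesis that could be tested, none (0 of 7) was called higher in secondary neurospheres, beside 13.1% of all 153 miRNAs. With so few tested, a count of 0 is close to that share. This list, the marker lists and the let-7 miRNAs below were chosen with earlier results of these data known. Of 15 listed, 13 were on the array and 7 were detected on all 4 arrays, of which limma called 2 lower, with a median difference of -0.38 beside -0.39 over all 153 miRNAs. Of all 153 miRNAs 32.7% were called lower. miR-124, the main miRNA of mature neurons, was at -1.43 and -0.89 on the secondary arrays titled NFIA OE and control and at -0.42 and 0.67 on the primary arrays. It fell by 1.28 on the log2 scale (limma adjusted p = 0.000133). miR-7a, which is rich in neurons and endocrine cells, fell by 1.12 (limma adjusted p = 0.000958). Both calls depended on the scaling: without scaling the differences were -0.33 for miR-124 and -0.17 for miR-7a (limma adjusted p = 0.734 and 0.883), and limma called miR-124 in 8 and miR-7a in 7 of 12 alternatives, all with negative differences. Neither was called without the secondary array titled NFIA OE (-1.01 and -0.73), the secondary array titled control (-1.56 and -1.50) or the primary array titled control (-0.73 and -0.74). miR-153, a brain-enriched miRNA, was at -0.65 (limma adjusted p = 0.0612), miR-218, known from motor neurons, at -0.38, and miR-128, a neuronal miRNA, at -0.26. The strands of the brain miRNA miR-129 had positive differences and were not called, at 0.57 for miR-129-3p (limma adjusted p = 0.109) and 0.59 for miR-129-5p (0.0953). miR-137, which acts beside Nr2e1 in neural stem cells, was detected on both secondary arrays and, of the primary arrays, on the one titled control. miR-132 was detected on the secondary arrays only, miR-212 and miR-7b on the secondary array titled control only, and miR-124* and miR-138 on none (0 of 4). The test needed detection on all 4 arrays, so members detected only in secondary neurospheres could not be called higher.

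Of the let-7 miRNAs reported to share the target Nr2e1 with miR-9, let-7d rose by 2.39 (limma adjusted p = 5.11e-12), and its call was lost with median centring (2.87, adjusted p = 0.0501) and without the secondary array titled control (2.12, adjusted p = 0.0844). Its scaled level was 0.67 and 1.20 on the secondary arrays titled NFIA OE and control, against -0.99 and -1.91 on the primary arrays. let-7b was detected on all arrays except the primary one titled control, so it was not tested.

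The title comparison asked how the strands differed between the arrays titled NFIA OE and those titled control. NFIA is a nuclear factor I protein known for its role at the onset of astrocyte formation. Neither strand was called by title. miR-9 had a scaled level of 1.68 and 0.0071 on the secondary and primary arrays titled NFIA OE, against 2.19 and 0.13 on those titled control, a difference of -0.32 (SE 0.29, 95% interval -0.89 to 0.26, limma adjusted p = 0.890). miR-9* stood at 1.37 and -0.79 on the arrays titled NFIA OE, against 2.20 and -0.85 on those titled control, a difference of -0.39 (SE 0.29, 95% interval -0.96 to 0.19, limma adjusted p = 0.890). By title 2.61% of the 153 miRNAs were called. By the titles the intervals leave room for a decrease of almost 1 log2 unit, and by the source names for as large an increase.

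The title differences of the strands were larger in secondary than in primary neurospheres under the scaling used. With median centring miR-9 was at -0.37 in secondary and -0.41 in primary neurospheres, so that order turned. In secondary neurospheres miR-9* was 1.78-fold lower on the array titled NFIA OE, a log2 difference of -0.83, which was the third-lowest of 195 miRNAs detected on both arrays. miR-9 differed there by -0.51 and was the 11th lowest. In primary neurospheres the differences were 0.06 for miR-9* and -0.12 for miR-9. With 1 array a group, there is no spread between replicates to set the differences of either passage against. At least 2-fold apart were 4.62% of the 195 miRNAs in secondary and 8.94% of 179 in primary neurospheres, and neither strand was among them (0 of 2 in each). The title difference thus changed by -0.89 for miR-9* and -0.38 for miR-9 between passages, the 13th and 42nd lowest of 153. The additive fit takes that change as residual, so it was not tested.

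The sign of the primary title differences depends on the processing. miR-9* had a negative primary difference with normexp (-0.041), quantile normalization (-0.14), median centring (-0.23), the authors' values (-0.092) and local background subtraction (-0.010), the last of these chosen after seeing the data. Before scaling, every used spot of each probe was brighter on the primary array titled NFIA OE than on the one titled control, and without scaling the differences were 0.52 for miR-9 and 0.70 for miR-9*. In secondary neurospheres both strands were lower on the array titled NFIA OE with and without scaling, at -0.77 for miR-9 and -1.096 for miR-9* without it. Of 11 listed markers of mesenchymal, muscle and endothelial cells, 3 were detected on each array titled NFIA OE and 1 on each array titled control. The members detected only on the arrays titled NFIA OE were miR-199a-5p and miR-214. The list's summed levels were 1.26 and 1.17 on the arrays titled NFIA OE against 0.246 and 0.374 on those titled control. The other 8 were detected on none of the arrays. Among them were the muscle miRNAs miR-1 and miR-133a, the endothelial miR-126-3p, and miR-143 and miR-145. The member detected on all 4 arrays, miR-199a-3p, had the highest title difference of the 153 miRNAs, at 2.05. By pair it was 2.37 in secondary and 1.74 in primary neurospheres. Which cells the detected markers came from, and their part in the title differences, was not tested.

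The ratio of the strands on 1 array does not depend on a constant scale between arrays. Since it sets different probes side by side, its level is not a ratio of molecules, and only its change between arrays is read. The log2 ratio of miR-9* over miR-9 was -0.32 on the secondary array titled NFIA OE and 0.0046 on the secondary array titled control, against -0.79 and -0.98 on the primary arrays titled NFIA OE and control. As linear ratios these are 0.802 and 1.003 in secondary and 0.577 and 0.507 in primary neurospheres. Both secondary arrays lay above both primary arrays. The ratio in the authors' deposited table, which is the scanner's total gene signal over a constant, ran the same way, at 0.739 and 0.927 in secondary and 0.536 and 0.479 in primary neurospheres.

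The ratio was 1.66-fold higher in secondary neurospheres, a log2 change of 0.73 (SE 0.20, 95% interval 0.31 to 1.15). A limma fit over the 14 strand pairs with both strands detected on all arrays called it, with an adjusted p of 0.0169 over the 14 pairs. Of these pairs 14.3% were called by passage and 7.14% were called higher. The exact permutation test of 2 arrays against 2 gave p = 0.333 (two-sided), the smallest p this design allows. By pair the change was 0.48 in the arrays titled NFIA OE and 0.98 in those titled control, and none (0) of the 14 pairs changed at least 2-fold in either. With 1 probe for each strand the change was 0.63, 0.66, 0.80 and 0.83 over the 4 combinations, and limma called each. Beside it stand the signal levels, since the ratio had the same order over the arrays as unscaled intensity, and the gap between the miR-9* probes was wider on the dimmer arrays. Their part in the change was not tested. With normexp background correction the change was 0.49 (limma adjusted p = 0.0647). The call was also lost with outlier spots kept (adjusted p = 0.165) and with the authors' processed values (0.186), at nearly the same size of 0.74 and 0.71. The call was lost, too, without any 1 of the 4 arrays, with values from 0.57 to 0.89.

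**Figure D4:**
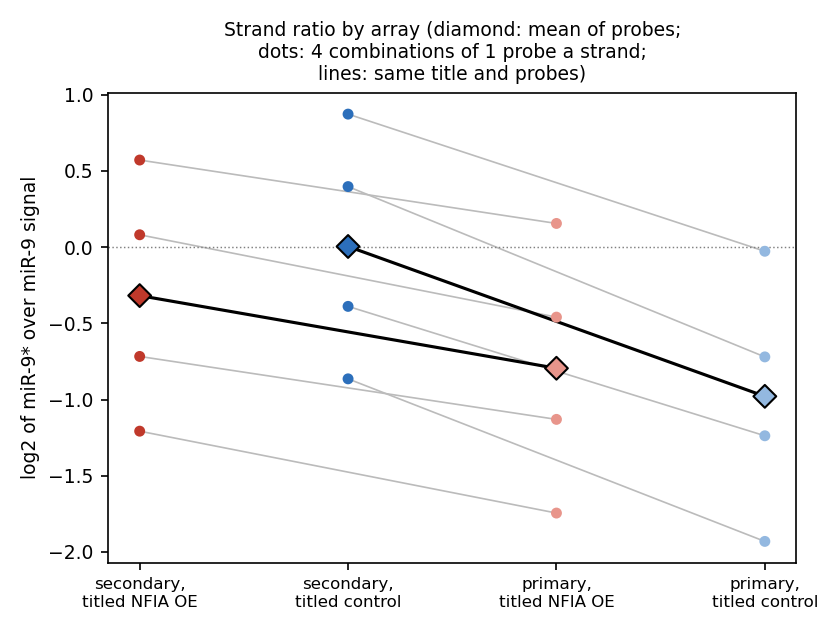
Log2 of miR-9* over miR-9 signal on each array; diamonds are the mean over probes, dots the 4 combinations of 1 probe a strand, and lines join arrays of the same title. Every line runs lower from the secondary array to the primary one, with the mean ratio at -0.32 and 0.0046 on the secondary arrays and -0.79 and -0.98 on the primary arrays.

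Among the other strand pairs, the next-highest passage changes of the ratio were 0.24 for miR-17*, of the proliferation-linked miR-17 cluster, and 0.23 for miR-342-3p, neither of them called. The lowest were -0.73 for miR-135a* (limma adjusted p = 0.0169), -0.45 for miR-411* of the Dlk1-Dio3 cluster and -0.30 for miR-30e*. miR-135a* was the other pair called, and it changed about as much in the opposite direction. Its ratio was also the 1 called by title, at 0.86 (limma adjusted p = 0.00776), out of 7.14% of pairs called. The ratio of miR-9* to miR-9 was not called by title, at -0.07 (SE 0.20, 95% interval -0.49 to 0.36, limma adjusted p = 0.950), with -0.32 in secondary and 0.18 in primary neurospheres.

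**Figure D5:**
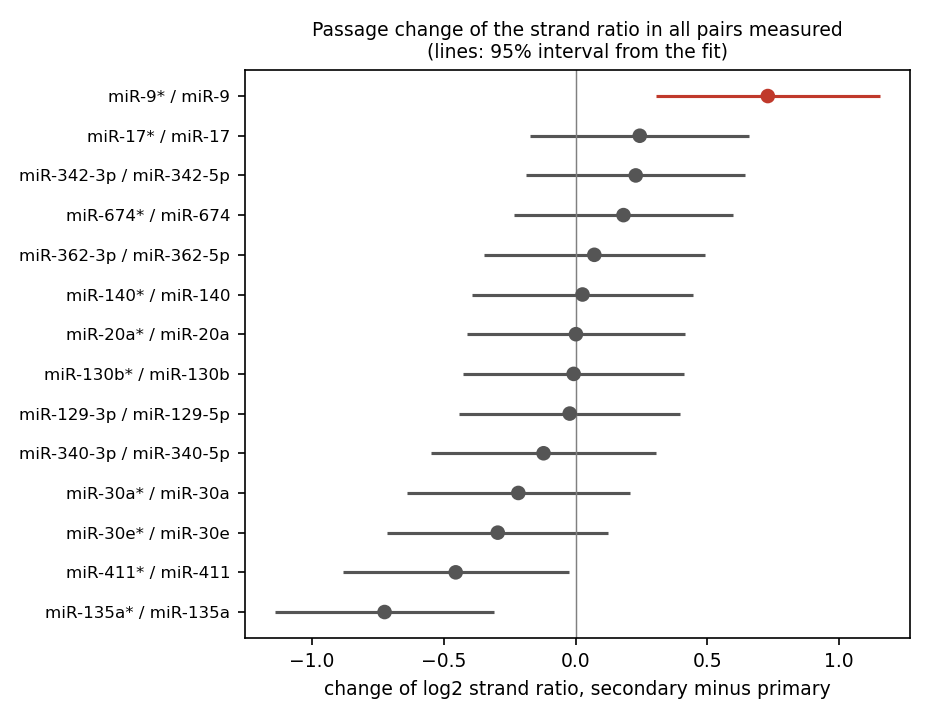
Passage change of the log2 strand ratio (secondary minus primary) for the 14 pairs with both strands detected on all arrays; dots are estimates and lines 95% intervals from the fit. The interval of miR-9* over miR-9, 0.31 to 1.15, and those of miR-135a* and miR-411* do not include 0.

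The miRNAs whose pattern over the 4 arrays was nearest to that of each strand were mostly let-7 miRNAs, which are known for increasing as stem cells differentiate. Likeness was the Euclidean distance of scaled log2 levels, each miRNA centred on its own mean, and is a description over 4 arrays that share scaling. Nearest to miR-9 were let-7f (0.563), let-7g (0.692), miR-9* (0.776), let-7a (0.776) and miR-21 (0.879), beside a median distance of 2.36. Nearest to miR-9* were let-7d (0.682), miR-9 (0.776), miR-210 (0.921), let-7f (0.994) and let-7i (1.103), beside a median of 3.12. Mature sequences of the nearest outside the pair, from RefSeq with the seed in capitals, show that they share no seed with either strand.
let-7f: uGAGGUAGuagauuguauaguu
let-7d: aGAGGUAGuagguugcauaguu
miR-210: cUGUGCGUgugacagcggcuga
let-7f stood at 2.30 and 2.73 on the secondary arrays titled NFIA OE and control, against 1.099 and 0.45 on the primary arrays. Its passage difference was 1.74, beside 1.87 for miR-9. miR-210, a hypoxia-induced miRNA, stood at 0.69 and 1.02 on the secondary arrays, against -2.25 and -1.11 on the primary arrays. miR-21, a growth-linked and glial miRNA, differed by 1.02 between passages, which is less than either strand. By title the let-7 miRNAs named here had positive differences, from 0.11 for let-7f to 0.47 for let-7i. Those of the strands were negative, at -0.32 for miR-9 and -0.39 for miR-9*, as were those of miR-210 (-0.74) and miR-21 (-0.13).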

How the data were processed

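The deposited scanner files hold linear spot intensity from 1-colour Cy3 arrays, background-subtracted and spatially detrended by Feature Extraction 10.5.1.1 but not scaled across arrays, per the file headers. For each miRNA the deposited series table has a linear intensity, the scanner's total gene signal over a divisor particular to the array. The basis of that divisor is not stated. Groups follow the sample titles.

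Non-outlier spots were averaged per probe. Detection of a probe needed 50% or more of its spots well above background, and arrays were divided by their 75th percentile over probes detected on all 4 before taking log2. A miRNA was the mean of its probes. limma 3.58.1 in R 4.3.3 fitted passage and title as additive terms (1 residual degree of freedom) to 153 miRNAs and to 14 strand pairs (X* minus X, or 3p minus 5p). Calls used a Benjamini-Hochberg adjusted p under 0.05. The fits were tried on simulated data with independent noise of a common SD and additive effects, so departures from these were not covered. For strand pairs, the planted changes were larger than the one seen for miR-9. Hairpins were folded with RNAfold 2.7.2.

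Besides the strands, the text names the 5 nearest patterns, the 3 pairs with the largest ratio change each way, and members of the lists. Members and lists were chosen with earlier results of these data known. Alternatives covered background, scaling, filter, spot summary, single probes, design and arrays left out.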

Additional observations from a re-analysis of the deposited data

Results flagged for a closer look

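The title difference of miR-9* had opposite signs at the passages, at -0.83 in secondary and 0.059 in primary neurospheres (1 array a side). The primary value was negative, as the secondary one, under 5 of 11 processing alternatives, at -0.23 with median centring, -0.14 with quantile normalization, -0.092 with the authors' values, -0.041 with normexp and -0.010 with the local background subtracted. The ratio of miR-9* to miR-9 also differed in sign, at -0.32 in secondary and 0.18 in primary neurospheres, and its primary value was 0.051 to 0.19 over those 11 alternatives. Neither difference between the passages was tested, since the additive fit takes it as residual.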

How the results depend on the processing

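The passage differences of miR-9 and miR-9* kept their direction in all 14 alternatives of processing, design and single probes, at 1.71 to 2.82 and 2.20 to 3.55, and their call in 13 of 14. The exception was median centring (2.35 and 3.08). With 1 array left out and the factor alone fitted, they ran from 1.61 to 2.12 and from 2.18 to 3.01. The title differences were negative in all 14 alternatives and never called, at -0.44 to -0.13 and -0.52 to -0.20, but with 1 array left out they ran from -1.35 to 0.71 and from -1.91 to 1.14, since passages are then unbalanced. They were positive without the secondary array titled control (0.71 and 1.14) and without the primary array titled NFIA OE (0.52 and 0.69). The labels carry no replicate numbers. The additive fit compares passages within each title and titles within each passage, and with the factor alone the strands kept their passage calls.

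The passage change of the strand ratio was positive in all 16 alternatives (0.49 to 0.83) and with each array left out (0.57 to 0.89). It was not called with normexp (0.49), detection on at least 1 array (0.73), no filter (0.73), the authors' values (0.71) or outlier spots kept (0.74). With the local background subtracted, an alternative chosen after seeing the data, it was 0.59 and called. The ratio's title difference ran from -0.56 to 0.42 with 1 array left out, at 0.42 without the secondary array titled control and 0.17 without the primary array titled NFIA OE.

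By passage, 70 of 153 miRNAs were called, against 30 with the percentile over all probes, 21 without scaling, 0 with median centring, 108 of 252 with detection on at least 1 array, and 0 to 68 with 1 array left out. By title 4 were called, against 2 with no filter, no scaling, quantile normalization or the all-probe percentile, 0 with median centring or title alone, and 0 to 1 with 1 array left out. Strand pairs called by passage numbered 2, against 1 with normexp, 0 with detection on at least 1 array, no filter, the authors' values or outlier spots kept, and 0 to 1 with 1 array left out. Pairs called by title numbered 1, against 0 with those last 4 settings or title alone, and 0 to 1 with 1 array left out. The split of passage calls was 20 higher and 50 lower, against 25 and 5 with the all-probe percentile, 20 and 1 without scaling, 21 and 30 with quantile normalization, 39 and 17 with the authors' values, 14 and 73 with normexp and 19 and 89 with detection on at least 1 array. The median miRNA's passage difference moved from -0.39 to 0.56 without scaling, and relative to it miR-9 stood at 1.83 under quantile normalization to 2.57 with no filter.

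Single pairs moved by more than the residual SD as follows. In the arrays titled NFIA OE, miR-9 differed between passages by 2.25 with the percentile over all probes, 2.17 without scaling, 2.37 with median centring and 2.33 with the authors' values. miR-9* differed by 1.81 with normexp, 2.73 with the all-probe percentile, 2.65 without scaling, 2.50 with quantile normalization, 2.85 with median centring and 2.79 with the authors' values. In the arrays titled control, miR-9 differed by 2.99 with the percentile over all probes, 3.47 without scaling and 2.70 with the authors' values. miR-9* differed by 2.58 with normexp, 3.97 with the percentile over all probes, 4.45 without scaling and 3.65 with the authors' values, and the ratio by 0.67 with normexp. By title, miR-9* in secondary neurospheres was at -0.49 with quantile normalization, and in primary neurospheres miR-9 was at 0.52 and miR-9* at 0.70 without scaling. The causes of these shifts were not tested. The dimmest probe of the strands, A_54_P1053 of miR-9*, averaged 73.2 units on the primary array titled control, where the median negative control was 3.72 units.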
